A study of Mus musculus with 6 samples.

Results

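The p53 gene Trp53, its inhibitor Mdm2, 5 genes for inhibitors of cyclin-dependent kinases (Cdkn1a, Cdkn1b, Cdkn2a, Cdkn2b and Cdkn2c) and the 3 Gadd45 genes were followed in mouse embryonic fibroblasts (MEFs) treated with TNFα. The 10 genes were chosen by symbol, and the table lists them among 20207 coding genes and 21837 genes in all. Together they have 13 listed transcripts, and each gene was read from the transcript with the highest mean value. The MEFs were primary wildtype cells of strain C57BL/6x 129, grown from littermate embryos of 13.5 days and passaged 4 times. They were left untreated or were given TNFα at 20 ng/ml for 1.5, 6 or 24 hr, and polyA RNA from each time was sequenced as 1 directional paired-end library. Trimethylation of histone H3 on lysine 4 (H3K4me3), a mark of active and poised transcription starts, was profiled in untreated MEFs with 1 ChIP library and 1 input library. With 1 library per time there is no replicate, so no p-value is given and every interval covers counting error only.

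p53 is a transcription factor that is stabilized in stressed cells and activates genes that stop the cell cycle, repair DNA or kill the cell. Mdm2 is both a target of p53 and the ubiquitin ligase that destroys it, and p19Arf, made from the Cdkn2a locus, blocks Mdm2. The Cdkn1 products (p21 and p27) bind cyclin-Cdk complexes, whereas the Cdkn2 products of the Ink4 family (p16Ink4a, p15Ink4b and p18Ink4c) bind Cdk4 and Cdk6 and keep the retinoblastoma protein active. Gadd45 proteins are small stress proteins that bind the kinase Map3k4, PCNA and Cdk1, and Gadd45b is also known as a target of NF-κB, the factor that TNFα activates. Cultured MEFs are known to gather p16Ink4a and p19Arf with passage.

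Cdkn2a makes 2 unlike proteins from one locus, and the sequences that tell them apart are the coding parts of their first exons, shown here because the RNA values of the locus turn on them. Both lie on the minus strand of chromosome 4 in mm9. The p16Ink4a stretch spans 126 bases at chr4:88927890-88928015, and the p19Arf stretch spans 190 bases at chr4:88940238-88940427. The capitals mark the start codon of each.
p16Ink4a first exon: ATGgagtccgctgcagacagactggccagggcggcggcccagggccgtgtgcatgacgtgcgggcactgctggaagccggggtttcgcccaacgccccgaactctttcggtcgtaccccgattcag
p19Arf first exon: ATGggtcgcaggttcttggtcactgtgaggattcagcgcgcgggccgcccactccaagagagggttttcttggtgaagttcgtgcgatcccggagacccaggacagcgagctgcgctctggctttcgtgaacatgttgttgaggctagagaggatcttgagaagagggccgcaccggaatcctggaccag
The p16Ink4a coding part is a whole number of codons, and the p19Arf coding part leaves 1 base over. The shared exons that follow are therefore read in different frames, into open frames of 504 coding bases for p16Ink4a and 507 for p19Arf in the annotation.

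Trp53 also has 2 listed transcripts, and the longer one holds 96 bases more, at chr11:69404756-69404851 on the plus strand, just ahead of the last exon. The coding part of that insert is shown because it changes the end of the protein, and the capitals mark its stop codon.
Trp53 insert: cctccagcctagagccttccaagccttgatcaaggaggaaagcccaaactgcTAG

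Values are given as RPKM, which scales the reads of a transcript to its length and to the library's total, so levels of different genes can be set side by side. The table gives every library as an R1 and an R2 column, and the level is the mean of both, as are the reads given beside a ratio. The column totals behind them ran from 36719296 to 51051361. The share of those totals that lay on listed genes was 30.7 to 37.2% in the untreated and 1.5 hr columns, 28 to 29.1% at 24 hr and only 17.9 to 19.6% at 6 hr. Of the coding genes, 8706 had an average RPKM above 1 and passed the filter, and the median of their log2 ratios to untreated came to 0.51, -0.72 and 0.16 at the 3 times. Each ratio below is therefore given as deposited and again relative to that median. Fibroblast markers were abundant, with a summed RPKM of the 8 markers of 2044, 2002, 955 and 1266 at 0, 1.5, 6 and 24 hr. The 4 endothelial and 4 epithelial markers summed to at most 0.123 in any library, and Epcam was listed at 0. The 5 leukocyte markers summed to 78, 387, 73.3 and 187, of which Lyz2, the macrophage lysozyme, made 55, 358, 65.7 and 175. The other leukocyte markers that passed were lower at 6 and 24 hr than before TNFα, Cd68 with 14.8, 20.1, 4.93 and 7.61 RPKM and Csf1r with 7.19, 7, 2.2 and 3.02, and the median log2 ratio of the 3 relative to the median coding gene was -0.07, -0.86 and -1.11. Ptprc and Emr1 did not pass, with 0.326, 0.751, 0.211 and 0.405 RPKM for Ptprc and 0.641, 1.81, 0.334 and 0.666 for Emr1. The 4 early TNF response genes (Nfkbia, Tnfaip3, Ccl2 and Cxcl1) summed to 14.1, 647, 196 and 482.

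In untreated MEFs the 10 genes spanned levels from 83.3 RPKM for Cdkn1a to 0.49 RPKM for Cdkn2c. Between them, in falling order, stood Gadd45g at 38.3, Cdkn2a at 17.8, Cdkn2b at 11.6, Trp53 at 10.4, Gadd45b at 8.04, Mdm2 at 5.79, Gadd45a at 4.37 and Cdkn1b at 1.66 RPKM. No 2 neighbours in that order had overlapping R1 and R2 values. At 1.5 hr the R1 and R2 values of Gadd45b (28.1 and 29.2) fell inside those of Trp53 (27.1 and 30.5), and at 24 hr those of Gadd45g (27.7 and 27.3) did too (26.1 and 28.8), while those of Cdkn2b (30.4 and 27.6) overlapped them. Cdkn1a was above the level of 98.5% of coding genes before TNFα, whereas Cdkn2c was above that of 49.3%. Cdkn2c had an average of 0.435 RPKM and did not pass the filter, and the other 9 genes did.

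**Figure D1:**
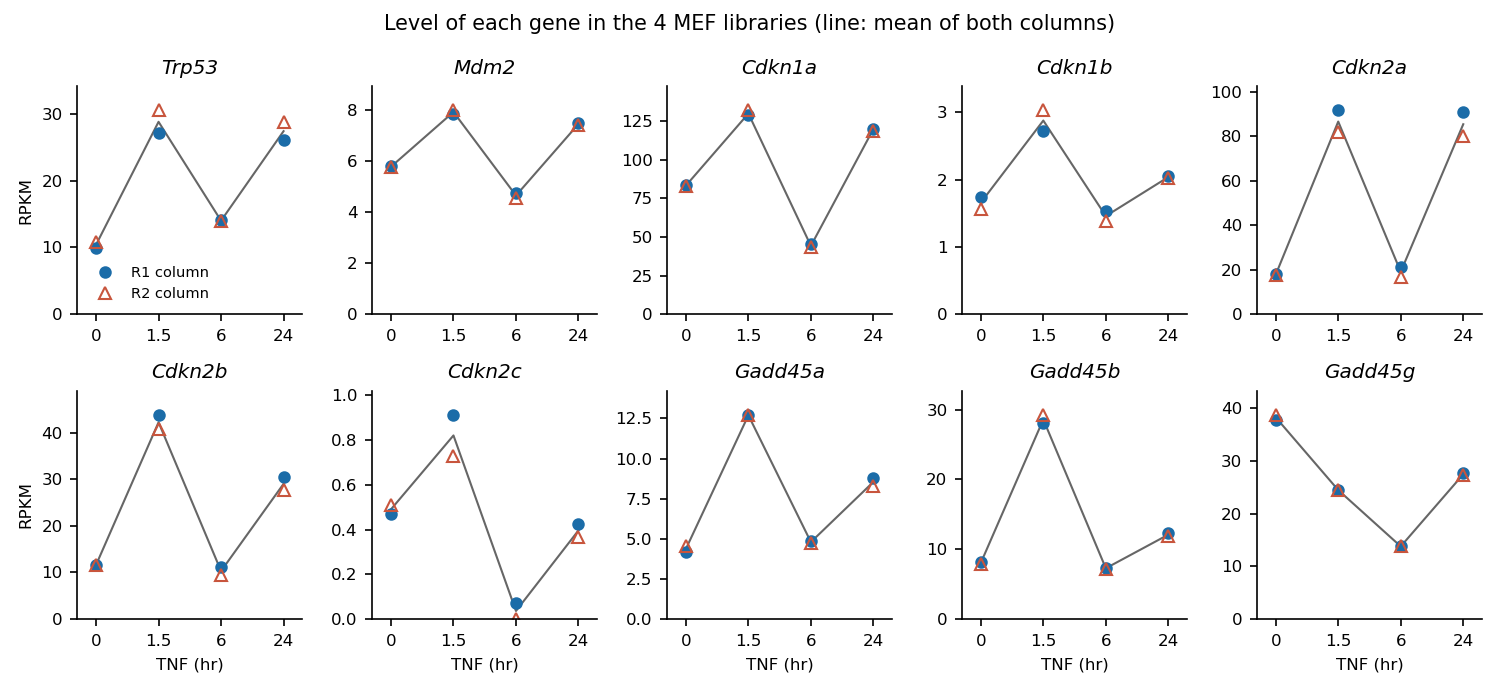
RPKM of each of the 10 genes (vertical axis, from 0, own scale for each gene) at 0, 1.5, 6 and 24 hr of TNFα (horizontal axis, evenly spaced), 1 library per time. Circles are the R1 column, triangles the R2 column and the line their mean. As deposited, 9 genes, with Cdkn2c under the filter among them, were higher at 1.5 hr than in untreated cells. The median log2 ratio of coding genes that passed was 0.51 there. Gadd45g went from 38.3 to 24.5 RPKM.

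As deposited, 5 of the 10 genes (Trp53, Cdkn2a, Cdkn2b, Gadd45a and Gadd45b) were at least 2-fold higher at 1.5 hr, where 31.6% of coding genes that passed were. None of the 10 was at least 2-fold lower there, against 7.52% of coding genes. At 6 hr none of the 10 was called higher, against 1.85% of coding genes, and 1 (Gadd45g) was called lower, against 31%. At 24 hr 3 (Trp53, Cdkn2a and Cdkn2b) were called higher, against 17.4%, and none lower, against 11.9%. The 6 hr library, where many coding genes were called lower, is also the one with the lowest share of its total on genes, and the part of that share was not tested.

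Relative to the median coding gene, 4 of the 10 (Cdkn2a, Cdkn2b, Gadd45a and Gadd45b) were higher at 1.5 hr, against 14.7% of coding genes, and 1 (Gadd45g) was lower, against 17.8%. At 6 hr 1 (Trp53) was higher, against 7.1%, and none was lower, against 3.81%. At 24 hr 3 (Trp53, Cdkn2a and Cdkn2b) were higher, against 13.1%, and none was lower, against 15.4%. On this scale the median log2 ratio of the 9 genes that passed was 0.96, 0.54 and 0.43 at the 3 times, where that of coding genes is 0 by construction. As deposited, the same median was 1.47, -0.18 and 0.59, beside 0.51, -0.72 and 0.16 for coding genes. The 3 comparisons share the untreated library, so they are not independent of each other.

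**Figure D2:**
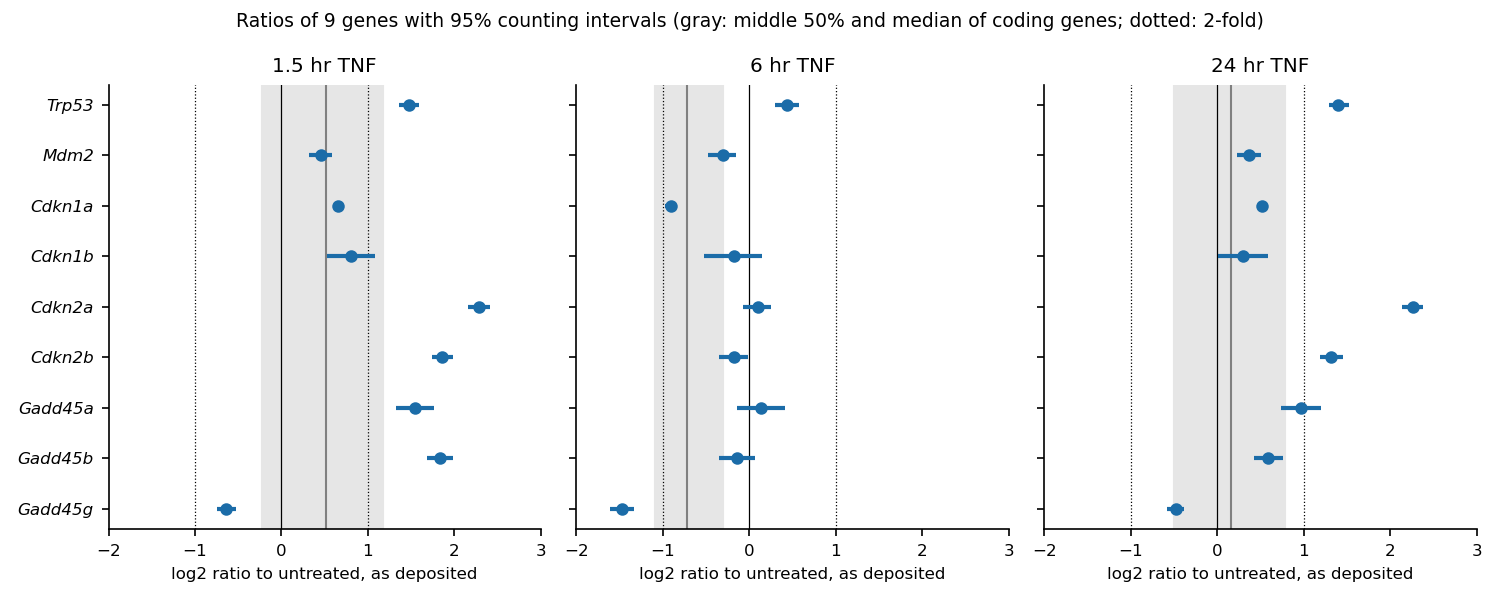
Log2 ratio to untreated, as deposited (horizontal axis), of the 9 genes that passed the filter (vertical axis) at 1.5, 6 and 24 hr of TNFα. Points are the ratios, blue bars 95% counting intervals, the gray band the middle 50% and the gray line the median of 8706 coding genes, and dotted lines mark 2-fold; Cdkn2a lies at 2.28 and 2.26 at 1.5 and 24 hr and at 0.10 at 6 hr.

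Trp53, which encodes p53 itself (chr11:69393861-69405375 in mm9, plus strand), had 10.4 RPKM in untreated MEFs, 28.8 at 1.5 hr, 14 at 6 hr and 27.4 at 24 hr. R1 and R2 gave 9.9 and 10.8 before TNFα and 27.1 and 30.5 at 1.5 hr. The 1.5 and 24 hr libraries were both high, and the 6 hr library stood nearer to the untreated one. As deposited, the log2 ratios were 1.47 (95% counting interval 1.36 to 1.59, 2302 reads against 796), 0.43 (0.30 to 0.57) and 1.40 (1.29 to 1.52). Relative to the median coding gene they were 0.96, 1.16 and 1.24, so on that scale Trp53 stayed between the 84.1 and the 95.1 percentile of coding genes at all 3 times. Trp53 was thus called at 6 hr relative to the median and not as deposited, and at 1.5 hr as deposited and not relative to the median.

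The insert of the longer Trp53 transcript was covered by 38.3, 40.5, 45.7 and 44.8 reads over both columns at 0, 1.5, 6 and 24 hr, obtained from the difference of the 2 transcripts' bases. Summed over both columns, the number of these reads was alike in the 4 libraries, while the coverage of the shorter transcript was 36.6 reads deep before TNFα and 106 at 1.5 hr. In single columns the number ran from 4.9 to 19.2 in R1 and from 24.2 to 40.8 in R2. As a percent of that coverage, the insert stood at 44.7% (95% counting interval 26.7 to 69.2) in untreated cells, 16.3% (9.85 to 24.9) at 1.5 hr, 44.9% (28.7 to 67.9) at 6 hr and 16.8% (10.3 to 24.9) at 24 hr. The 2 columns did not give the same picture. R1 alone had 26.4, 13.9, 9.84 and 15.3%, and R2 alone had 61.2, 18.5, 78.6 and 18.1%, so the high 6 hr value rests on R2. At 6 hr the intervals were 3.26 to 23.4 in R1 and 56.7 to 107 in R2. Both column values lie outside the interval over both columns there, which does not cover the spread between columns. In untreated cells R1 had 13.5 to 48.4 and R2 41.3 to 89.8, so the untreated value also leans on R2. The untreated R1 interval overlapped that of R1 at 1.5 hr (7.8 to 22.2). The difference stands for the insert only if bases were counted by position in the exons, which the sources used here do not say. A processed pseudogene, Trp53-ps, is annotated, and reads it may share with Trp53 cannot be told apart here.

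Mdm2, the ligase that opposes p53 (chr10:117125944-117147814, minus strand), had 5.79, 7.94, 4.66 and 7.47 RPKM at 0, 1.5, 6 and 24 hr. R1 and R2 lay close together, at 5.8 and 5.78 before TNFα and at 4.75 and 4.58 at 6 hr, and both put the 6 hr library lowest. Its log2 ratios as deposited were 0.46 (95% counting interval 0.32 to 0.59), -0.31 (-0.48 to -0.15) and 0.37 (0.23 to 0.50), and it was called at no time. After subtracting the median they were -0.06, 0.41 and 0.21, so the sign at 1.5 and at 6 hr turns with the scaling.

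Cdkn1a, which encodes p21, the best known p53 target of the cell cycle (chr17:29230717-29237667 for the transcript used, plus strand), had 83.3, 130, 44.3 and 120 RPKM. Both columns put the 6 hr library lowest (45.3 and 43.3) and the 1.5 hr library highest (129 and 132). The log2 ratios as deposited were 0.65 (95% counting interval 0.60 to 0.69), -0.91 (-0.97 to -0.85) and 0.52 (0.48 to 0.57), none at 2-fold. Relative to the median coding gene they came to 0.13, -0.19 and 0.36, between the 36.6 and the 65 percentile of coding genes. Trp53 therefore stood apart in size from its targets Mdm2 and Cdkn1a: Trp53 was 0.96 to 1.24 above the median at each time, and Mdm2 and Cdkn1a stayed within 0.41 of it. Gadd45a, which p53 also activates, lay nearer to Trp53, with relative ratios of 1.02, 0.86 and 0.81.

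Cdkn1b, which encodes p27 (chr6:134870419-134875531, plus strand), was low, with 1.66, 2.88, 1.46 and 2.04 RPKM on 133 to 312 reads. Its log2 ratios of 0.80 (95% counting interval 0.53 to 1.08), -0.18 (-0.52 to 0.15) and 0.30 (0.01 to 0.59) reached 2-fold at no time, and relative to the median they were 0.29, 0.54 and 0.14. Cdkn2c, which encodes p18Ink4c (chr4:109333481-109339794, minus strand), had 0.49, 0.82, 0.0363 and 0.396 RPKM on 23, 41, 1 and 22 reads. Its value at 6 hr came from 121 bases in R1 and 0 in R2, so a ratio there of -3.76 has a counting interval of -9.70 to -1.71 and no call was made.

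Cdkn2a had the highest ratio of the 10 genes at 1.5 and at 24 hr. The transcript used, NM_001040654 (chr4:88920377-88928096, minus strand), had 17.8 RPKM in untreated cells, 86.7 at 1.5 hr, 19.1 at 6 hr and 85.5 at 24 hr. R1 and R2 gave 18.1 and 17.6, then 91.7 and 81.8, then 21.3 and 16.8, and last 90.8 and 80.3. The 1.5 and 24 hr libraries lay far above the other two in both columns. As deposited, the log2 ratios were 2.28 (95% counting interval 2.16 to 2.41, 3321 reads against 655), 0.10 (-0.07 to 0.25) and 2.26 (2.14 to 2.38). Relative to the median coding gene they were 1.77, 0.82 and 2.10, which ranked 227, 927 and 108 from the top among 8706 coding genes. Lyz2 and the median of coding genes as deposited were also highest at 1.5 hr and next highest at 24 hr. The leukocyte markers Cd68 and Csf1r were lower at 24 hr than in untreated cells, by 1.11 and 1.41 on the log2 scale relative to the median. Ptprc and Emr1, leukocyte markers under the filter, had relative ratios of 0.69 and 0.98 at 1.5 hr and of 0.15 and -0.10 at 24 hr. The part of these in the Cdkn2a values was not tested, and more cells of a type and more RNA per cell cannot be told apart in these bulk samples.

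The p19Arf transcript of the locus, NM_009877, had 17.1, 76.7, 17.8 and 73.7 RPKM and log2 ratios of 2.17, 0.06 and 2.11, close to those of the p16Ink4a transcript. The 2 share all but their first exons, so their values are not separate measurements. The difference of their bases stands for the first exons printed above with their leaders (207 bases for p16Ink4a, 286 for p19Arf) only if bases were counted by position in the exons, as for the Trp53 insert. Read that way, it gives the following. In R1 the p16Ink4a exon had 37 reads fewer than the p19Arf exon in untreated cells, 43 fewer at 1.5 hr, 1 more at 6 hr and 18 more at 24 hr. In R2 it had 25 fewer, 270 more, 23 fewer and 415 more. Where the p16Ink4a exon had more reads it also had more per base, since it is the shorter, and this held at 24 hr in both columns, at 1.5 hr in R2 alone and, by 1 read, at 6 hr in R1 alone. Where it had fewer, the order per base cannot be read from a difference. The columns thus do not give one answer at 1.5 hr and are far apart in size at 24 hr, and without the reads of either exon alone the differences have no counting interval.

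**Figure D3:**
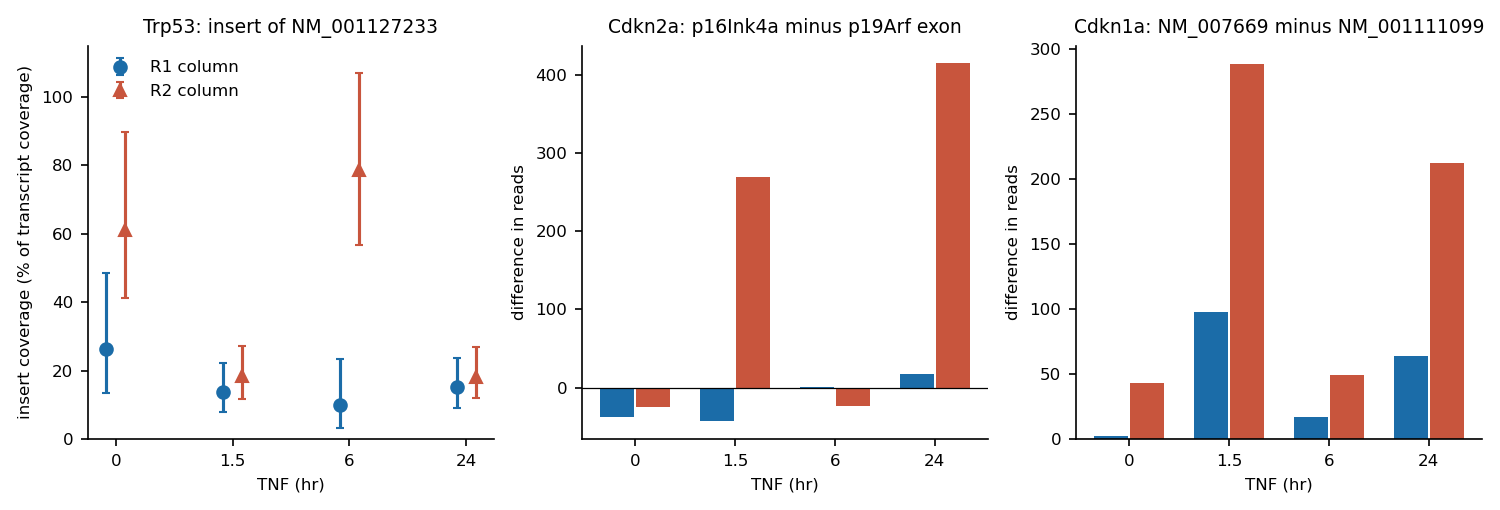
Transcript differences at 0, 1.5, 6 and 24 hr of TNFα (horizontal axes), R1 in blue and R2 in red. The left plot gives the coverage of the Trp53 insert as a percent of the coverage of the shorter transcript with 95% counting intervals, the middle plot the reads on the p16Ink4a exon minus those on the p19Arf exon, and the right plot the reads of Cdkn1a transcript NM_007669 minus NM_001111099; the tallest bars are R2 at 24 hr (415 reads) and R2 at 1.5 hr (288 reads).

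Cdkn2b, the neighbour of Cdkn2a that encodes p15Ink4b (chr4:88952198-88956941, minus strand), had 11.6, 42.2, 10.3 and 29 RPKM. Both columns were high at 1.5 hr (43.7 and 40.7) and at 24 hr (30.4 and 27.6), and the other 4 values lay between 9.5 and 11.7. The log2 ratios were 1.86 (95% counting interval 1.74 to 1.98), -0.18 (-0.35 to -0.02) and 1.32 (1.19 to 1.45). They stood at 1.35, 0.54 and 1.16 relative to the median. The sign at 6 hr turns with the scaling, as it does for Cdkn1b and Gadd45b. Mtap, a methylthioadenosine phosphorylase gene that is the next neighbour of the Cdkn2a locus, had 2.55, 9.47, 2.59 and 6.3 RPKM and relative ratios of 1.38, 0.75 and 1.15.

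Of the Cdkn1a transcripts, NM_007669 had 83.3, 130, 44.3 and 120 RPKM and NM_001111099 had 81.9, 126, 43.2 and 117. The bases of the first exceeded those of the other in every column, by 2, 98, 17 and 64 reads in R1 and by 43, 288, 49 and 212 in R2. These are at most 2.56% of the bases of the transcript, and the log2 ratios of NM_001111099 were 0.63, -0.92 and 0.51.

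The 3 Gadd45 genes differed in direction. Gadd45a, the family member that p53 activates (chr6:66985090-66987400, minus strand), had 4.37, 12.7, 4.8 and 8.55 RPKM, and both columns put the 1.5 hr library highest (12.7 and 12.7). Its log2 ratios as deposited were 1.54 (95% counting interval 1.32 to 1.76), 0.14 (-0.14 to 0.41) and 0.97 (0.74 to 1.20), the last just under 2-fold. On the relative scale they were 1.02, 0.86 and 0.81, so it was past 2-fold at 1.5 hr and just short of it later. These calls are close to the threshold. With R2 alone Gadd45a was not called at 1.5 hr relative to the median, and as deposited it was called higher at 24 hr with R1 alone (1.07). The lincRNA E230016M11Rik overlaps 859 bases of the gene on the opposite strand, and reads of both cannot be told apart where strand was not used in counting.

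Gadd45b, the member tied to NF-κB (chr10:80392836-80394949, plus strand), had 8.04, 28.6, 7.28 and 12.1 RPKM. Only the 1.5 hr library was high, in R1 (28.1) and R2 (29.2) alike. The log2 ratios were 1.83 (95% counting interval 1.68 to 1.99), -0.14 (-0.35 to 0.06) and 0.59 (0.42 to 0.76), and relative to the median 1.32, 0.58 and 0.43. Among the genes called at 1.5 hr it had the widest gap between 1.5 and 24 hr, since its relative ratio at 24 hr minus that at 1.5 hr was -0.89. For Cdkn2a the same difference was 0.33.

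Gadd45g (chr13:51942047-51943837, plus strand) went the other way. It had 38.3 RPKM in untreated cells, 24.5 at 1.5 hr, 13.8 at 6 hr and 27.5 at 24 hr (R1 and R2 of 37.9 and 38.7, 24.5 and 24.6, 13.8 and 13.8, and 27.7 and 27.3). Every treated library lay below the untreated one. The log2 ratios were -0.64 (95% counting interval -0.75 to -0.53), -1.47 (-1.61 to -1.33) and -0.48 (-0.58 to -0.38) as deposited and -1.15, -0.75 and -0.64 relative to the median. It was thus below the median coding gene at each time, and the time at which it passed 2-fold depended on the scale, 6 hr as deposited and 1.5 hr relative to the median.

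The coding genes nearest to each called member over its 3 log2 ratios were found by Euclidean distance over 3 comparisons, which describes likeness only. Nearest to Cdkn2a were the tubulin genes Tuba1b (distance 0.12) and Tuba1a (0.18), and the costimulatory gene Cd80 (0.19). Nearest to Cdkn2b were Atp5g3 (0.036), Xrn2 (0.049) and Akt1 (0.051). Nearest to Trp53 were Srsf1 (0.11), Fosl1 (0.11) and Cisd2 (0.12). Gadd45a lay nearest to Gnl3 (0.017), Tmed2 (0.053) and Pros1 (0.054), and Gadd45b to Fbxo32 (0.1), Top2a (0.16) and Pla2g7 (0.16). Gadd45g lay nearest to Zfp503 (0.062), Fam69b (0.11) and Pcbp3 (0.13).

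Other genes of the pathway were read from 6 lists, on the scale relative to the median coding gene. Beside their counts stand the shares of all coding genes that passed, 14.7% higher and 17.8% lower at 1.5 hr, 7.1 and 3.81% at 6 hr, and 13.1 and 15.4% at 24 hr. No count of a list was tested against these shares. Of 25 p53 targets outside the 10 genes, 20 passed the filter, and 4 were called higher and 1 lower at 1.5 hr, 3 higher and 0 lower at 6 hr, and 4 higher and 2 lower at 24 hr. Fas, a death receptor, was highest at 3.81, 3.17 and 2.56 at the 3 times, ahead of Btg2, an antiproliferative gene (1.25, 1.44 and 0.93), and the kinase gene Plk2 (1.14, 1.44 and 1.39). Sfn, which encodes 14-3-3 sigma, had -0.76, -0.30 and -1.67, the last being the lowest of the list at 24 hr. The proapoptotic gene Bbc3, known as Puma, was the lowest at 1.5 hr, where it was the gene called lower, with 8.19, 5.82, 5.74 and 4.33 RPKM at the 4 times and relative ratios of 0.21 at 6 hr and -1.08 at 24 hr. The median of the list was 0.29, 0.26 and 0.15. Of 12 p53 regulators, 7 passed, and 1 was called, Rfwd2, a ubiquitin ligase gene for p53, at 24 hr (1.05).

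Of 15 genes of the cyclin D to E2F axis, which lies downstream of the Ink4 inhibitors, 10 passed. At 1.5 hr 2 were called higher and 1 lower (14.7 and 17.8% of coding genes), at 6 hr 1 higher and 0 lower (7.1 and 3.81%), and at 24 hr 1 higher and 1 lower (13.1 and 15.4%). Cdk6, a target of the Ink4 proteins, had ratios of 1.14, 1.06 and 1.13, and Ccne1, which encodes cyclin E1, had 1.01, 0.49 and 0.89. E2f1, the transcription factor at the end of the axis, had -1.28, -0.54 and -1.02. Cdkn1c, which encodes the third Cdkn1 protein, p57, went from 14 RPKM to 7.68, 3.14 and 4.64, with relative ratios of -1.38, -1.43 and -1.75. It stood in a list of 6 other inhibitors and neighbours of the locus, of which 5 passed, and 1, 0 and 2 were called higher and 1, 1 and 1 lower at the 3 times, beside the same shares.

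Of 11 partners of the Gadd45 proteins, 9 passed, with 4 higher and 2 lower at 1.5 hr (14.7 and 17.8% of coding genes), 1 higher and 0 lower at 6 hr (7.1 and 3.81%) and 4 higher and 2 lower at 24 hr (13.1 and 15.4%). Cdk1, the mitotic kinase gene, had 1.97, 1.21 and 1.64, and Pcna, the replication clamp gene, 1.58, 0.59 and 1.14. The kinase gene Map2k7, whose product Gadd45b is known to inhibit, had -1.51, -0.33 and -1.28. Of 8 known repressors and activators of Ink4a and Arf, 6 passed, with 3, 1 and 1 higher and 0, 1 and 0 lower, beside the same shares. Junb, an activator of p16Ink4a, had 5.31, 31.3, 7.41 and 23.7 RPKM and relative ratios of 2.05 at 1.5 hr and 1.20 at 6 hr. Ets1, another activator, had relative ratios of 1.37, 0.86 and 0.74. Id1, a repressor of it, had 0.32, -1.20 and -0.70. Ezh2, also on this list, had 0.53, -0.39 and 0.26.

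**Figure D4:**
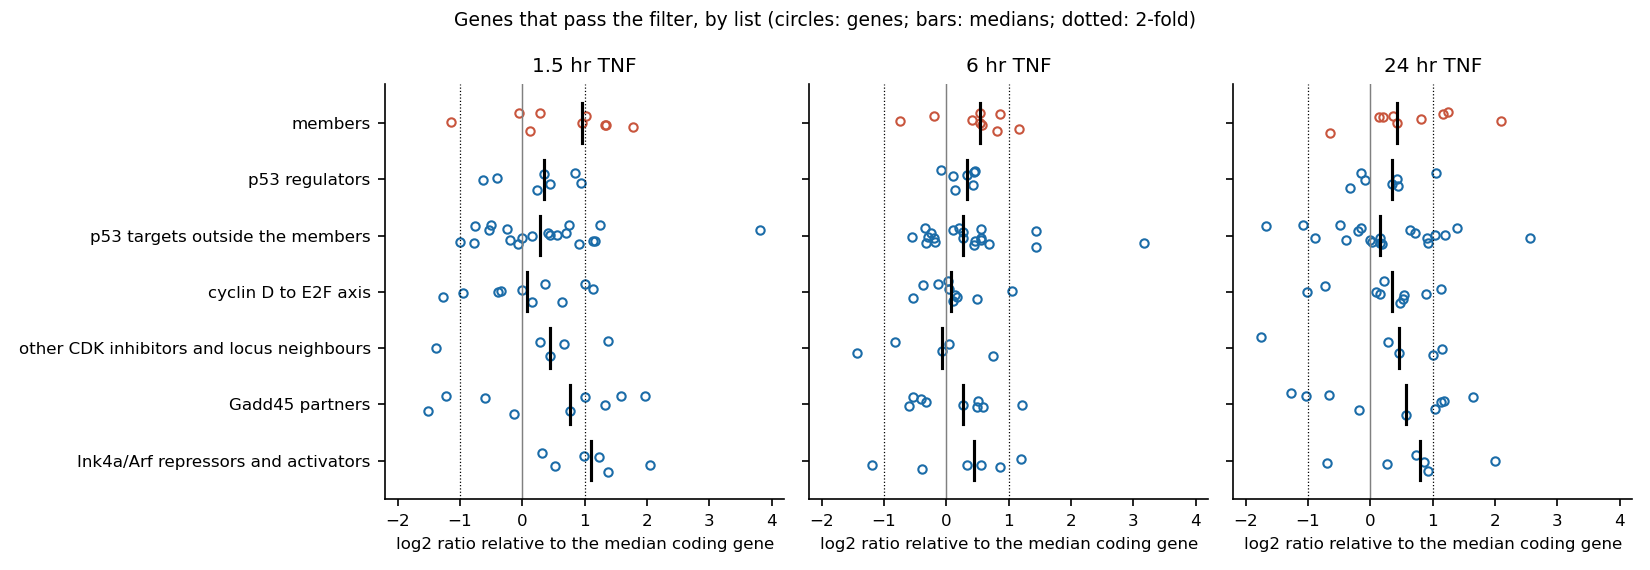
Log2 ratio relative to the median coding gene (horizontal axis) at 1.5, 6 and 24 hr of TNFα for the 9 genes that passed the filter (red) and the genes of 6 lists that did (blue, 1 circle per gene, scattered vertically for legibility). Black bars are medians and dotted lines mark 2-fold; the circle farthest to the right is Fas, at 3.81, 3.17 and 2.56.

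H3K4me3 in untreated MEFs gives a view of the same genes that does not rest on the RNA values. All 10 genes had a peak within 1 kb of an annotated start. Of the coding genes matched to the annotation, 90.4% of the 8548 that passed the RNA filter had one. The share was 37.2% in a set of 7756 with lower RNA, which did not take in every gene that failed the filter. Over all 19657 matched coding genes, some of them in neither set, the share was 54.1%. Cdkn2c, the one of the 10 genes under the RNA filter, had a peak of 2366 tags and 59.1-fold enrichment over input. Their peaks ran from 4525 bases at Gadd45a to 8795 bases at Cdkn1a, where the median of all 11157 peaks was 3187 bases. Lengths, tags and fold are set here against all peaks, and were not compared with peaks of expressed coding genes alone. In tags, the peak of Cdkn1a (3666) and that of Gadd45g (3566) were above 99.2% of all peaks, and that of Cdkn2b (1427) was above 71.9%.

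Fold enrichment was not ordered like the tags. Cdkn2a had the highest, 108-fold on 1767 tags, above 96.2% of peaks, and Cdkn2b the lowest, 25.9-fold, above 11.2% of peaks. Trp53 had 2967 tags and 73.4-fold, Gadd45g 73-fold, Gadd45a 1893 tags and 44.4-fold, Gadd45b 2897 tags and 43.7-fold, Cdkn1b 2823 tags and 40.1-fold, and Mdm2 2399 tags and 34.5-fold. Under a stricter fold of 40, Cdkn2b and Mdm2 lost their peaks. That left 8 of the 10 genes with one, against 62% of coding genes that passed the RNA filter.

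The Cdkn2a peak, chr4:88938021-88943106, covered the start of p19Arf with 2583 bases upstream and 2502 downstream of it. No peak was listed at the start of p16Ink4a, and the nearest edge was 9925 bases away, that of the p19Arf peak. At Cdkn1a a single peak, chr17:29227179-29235973, covered all 3 annotated starts. The marks were measured before TNFα only, so no change of them with treatment was measured here.

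**Figure D5:**
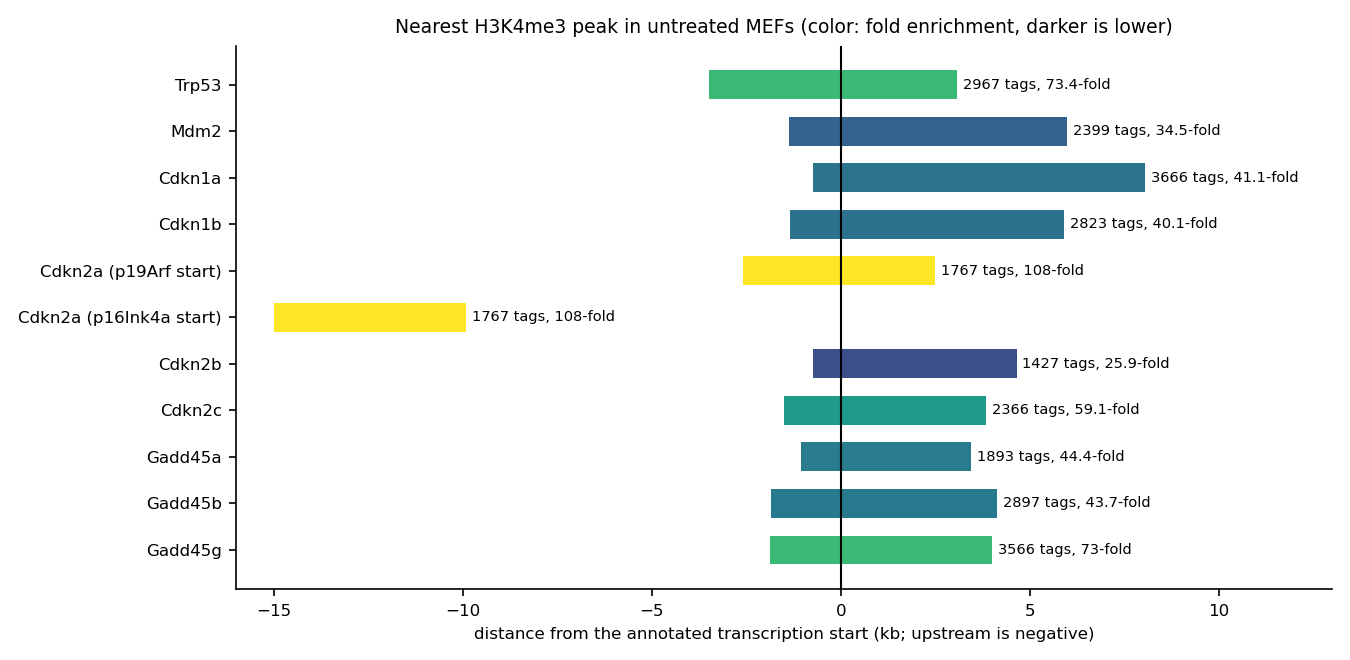
Extent of the nearest H3K4me3 peak (bars) around the annotated start of each gene (line at 0) in untreated MEFs, as distance in kb with upstream to the left; for Cdkn1a the upstream start is used, and Cdkn2a is drawn for both starts. Each bar carries its tags and fold enrichment, with darker color for lower fold; the bar of the p16Ink4a start lies 9925 bases away from it.

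The promoters under these peaks are shown where they hold a κB motif or a p53 decamer, the 10-base unit of p53 elements. RefSeq promoter windows of 250 bases before to 50 after the start (GRCm38.p6) were searched on both strands for each consensus, 13 windows for the 10 genes. A κB match was present in 1 window, that of Trp53, against 8.46% of all 32851 windows. A p53 decamer was present in 4 windows, those of Trp53, Mdm2, Cdkn1a and Gadd45a, against 8.36%. Each printed stretch was found once on its chromosome in mm9, inside the H3K4me3 peak of its gene, and the capitals mark the matches. The stretches lie at chr11:69393836-69393885 and chr11:69393766-69393815 (Trp53, plus strand), chr17:29227831-29227902 (Cdkn1a, plus strand), chr10:117147971-117148020 (Mdm2, minus strand) and chr6:66987412-66987461 (Gadd45a, minus strand).
Trp53, κB match: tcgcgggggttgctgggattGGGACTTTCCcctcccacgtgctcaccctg
Trp53, p53 decamer: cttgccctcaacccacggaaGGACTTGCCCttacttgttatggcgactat
Cdkn1a upstream start, p53 decamers: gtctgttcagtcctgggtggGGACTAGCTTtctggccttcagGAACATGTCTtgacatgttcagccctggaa
Mdm2, p53 decamer: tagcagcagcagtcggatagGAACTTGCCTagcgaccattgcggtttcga
Gadd45a, p53 decamer: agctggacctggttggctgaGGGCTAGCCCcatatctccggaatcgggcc
The κB match of Trp53 begins 5 bases before the start, and none of its bases is shared with the p53 decamer of the same window. A match of letters is a description and not a site of binding. Of the genes with a p53 decamer in a window, Trp53 and Gadd45a had relative ratios of 0.81 to 1.24 at all 3 times, and Mdm2 and Cdkn1a had ratios of -0.19 to 0.41. The Cdkn1a ratios are of the transcript from chr17:29230717, whose own window held neither motif, while the decamers lie at the upstream start. The windows of Cdkn1b, Cdkn2a, Cdkn2b, Cdkn2c, Gadd45b and Gadd45g held neither motif.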

How the data were processed

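Primary MEFs were sequenced by polyA RNA-seq before and after TNFα with 1 library per time, and by H3K4me3 ChIP-seq and input in untreated cells. The authors mapped RNA reads to mm9 with TopHat and deposited RPKM values per RefSeq transcript, made with a script of their own, in columns R1 and R2 for each library. Columns were matched to times through the study's supplement, since their names carry a code. R1 and R2 belong to the same library and are not replicates. The sources used here do not say whether they are the mates of each read pair, so reads over both columns may count a fragment in each. One label of the 24 hr RNA library describes chromatin extraction, against its title and treatment.

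Each deposited value equals a whole number of bases, to 0.001 base, for 21806 of 21810 transcripts tried (99.982%), divided by length and column total. The most frequent number of bases was 41, then 82, so the RPKM used here is the deposited value divided by 41. No pseudocount was added. Calls needed a mean above 1 RPKM across the 4 libraries and a difference of at least 2-fold from untreated, as deposited or after subtracting the median log2 ratio of coding genes that passed. Counting intervals of the log2 ratios are exact (Clopper-Pearson, 95%) on mean reads of R1 and R2. Those of the Trp53 insert are Poisson intervals (95%) on its reads, with the coverage of the shorter transcript held fixed. They rest on mean reads of R1 and R2 for the value over both columns, and on a column's own reads for that column. Reads without molecular identifiers are not independent molecules.

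For the ChIP library the authors used Bowtie to map and MACS to find peaks. Of the deposited peak list, the tag counts and the ratio of enrichment over input (fold) were used, and its FDR percent was read. The authors' peak caller also made a score from the p-value of each peak and a signal of average tags, both deposited and not used here. Starts and exons came from GENCODE vM1 on mm9, and promoter windows from RefSeq.

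The 10 genes, the lists and the markers were chosen with earlier results of these data known. All 10 genes were described in full, and of each list up to 3 genes with the highest and up to 3 with the lowest relative ratios at any time; for each gene called relative to the median, the 3 nearest coding genes. The deposited scale used here is not the one applied earlier, so the filter at 2 RPKM was added after seeing the data. Steps were tested on simulated data. Python 3.11.15, NumPy 2.4.6, pandas 2.3.3 and SciPy 1.17.1 were used.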

Additional observations from a re-analysis of the deposited data

Results flagged for a closer look

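Cdkn1a was higher than untreated at 1.5 hr and lower at 6 hr in both columns, as deposited and relative to the median coding gene, so its signs at these times were opposite in every column. The log2 ratio at 1.5 hr minus that at 6 hr was 1.56 as deposited, and relative to the median the ratios were 0.13 and -0.19, so that 6 hr minus 1.5 hr was only -0.32. It was again higher at 24 hr. The log2 ratio at 6 hr minus that at 24 hr was -1.43 as deposited, and relative to the median 24 hr minus 6 hr was 0.55. Relative to the median, R1 gave 0.13, -0.19 and 0.37 and R2 gave 0.14, -0.19 and 0.37 at the 3 times. Whether the times differ was not tested (1 library each), and none of these ratios reached 2-fold.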

How the results depend on the processing

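Of 269 member ratios recomputed, 110 fell outside their counting interval, and 24 ratios under the threshold changed sign. No called ratio changed sign, but the largest shift of any scaling was -0.83 on the log2 scale. A called ratio is at least 2-fold, so no scaling could turn one. Of 129 counts recomputed, 101 stayed within 1.5 times. As deposited, 0 members were higher and 1 lower at 6 hr (1.85 and 31% of coding genes). The other scalings put 1 higher (Trp53, against 6.94 to 9.09%) and 0 lower (against 2.57 to 3.88%) at that time. They used the sum, the median of ratios over coding genes or over all transcripts, a trimmed mean and the bases on genes. The last was added after seeing the data. The 3 median or trimmed scalings also put 1 (Gadd45g) lower at 1.5 hr (17.1 to 17.8% of coding genes), against 0 as deposited (7.52%). With no filter, Cdkn2c joined the genes lower at 6 hr, giving 2 as deposited (31.3% of coding genes) and 1 relative to the median (13.3%). With a fold of 1.5, as deposited 1 was lower at 1.5 hr (15.3% of coding genes), 2 lower at 6 hr (59.6%) and 5 higher at 24 hr (32.6%); relative to the median 3 were higher at 6 hr (17.9%) and 1 was lower at 6 hr (14.6%) and at 24 hr (27.5%). With a fold of 3, as deposited 3 were higher at 1.5 hr (12.9%), 0 lower at 6 hr (6.03%) and 1 (Cdkn2a) higher at 24 hr (5.15%); relative to the median 1 (Cdkn2a) was higher at 1.5 hr (3.97%) and at 24 hr (3.48%), 0 lower at 1.5 hr (6.37%) and 0 higher at 6 hr (2.23%). R1 or R2 alone, a pseudocount of 1, the sum over all rows and filters at 2 or 5 RPKM left each count within 1.5 times, as did every alternative for the H3K4me3 peaks. Within these counts Gadd45a changed side: relative to the median at 1.5 hr it was lost with R2 alone, and at 24 hr it was called higher as deposited with R1 alone (1.07), or when scaled to the sum (1.02) or to the bases on genes.

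No paired analysis was possible because each time has 1 library. Depth limits Cdkn2c, with 121 bases in R1 and 0 in R2 at 6 hr, and the insert of Trp53, with 4.9 to 40.8 reads in a column. The lower share of reads on genes at 6 hr cannot be told apart from the time itself.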
